A study of Mus musculus with 12 samples.

Results

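The transcripts examined here encode subunits of the core spliceosome, chosen by gene symbol alone: the Sf3a and Sf3b subunits of the U2 particle, the Snrnp and Prpf proteins of the U1, U4/U6.U5 and U11/U12 particles, the U2AF heterodimer, the Luc7-like proteins and the numbered LSm proteins. The rule took 48 symbols, which fill 49 of 53715 gene rows in the main table of periosteal stem cells (PSCs) and 48 of 46517 rows in the osteoclast table. U2af1l4 stands in the PSC tables as 2 overlapping gene models, written here U2af1l4_1 (ENSMUSG00000078765) and U2af1l4_2 (ENSMUSG00000109378). In GENCODE M21 only the first bears the symbol U2af1l4, and the second is named Gm49396. The label holds for most of the family, with exceptions among the LSm proteins. Lsm1 belongs to a cytoplasmic ring that promotes mRNA decapping, Lsm10 and Lsm11 to the U7 particle that processes histone pre-mRNA, and Lsm12, Lsm14a and Lsm14b are not spliceosome subunits.

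Splicing removes introns in steps. The U1 particle recognises the 5′ splice site, U2AF reads the 3′ end of the intron, and the U2 particle then settles on the branch point through SF3a and SF3b. The U4/U6.U5 tri-snRNP joins next and is remodelled into the catalytic centre. PRMT5 is an arginine methyltransferase whose classical substrates include Sm proteins, which form the ring at the heart of the spliceosomal particles.

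RNA was sequenced on the Ion Torrent Proton from FACS-sorted PSCs of C57BL/6 mice 3 to 6 weeks old and from osteoclasts of 11-week-old C57BL/6 mice, grown in culture and taken after 72 h with RANKL, which drives their formation. All PSC donors carried Ctsk-Cre and the CAG-CAT-EGFP reporter, on a Prmt5 flox/+ background in the controls and a Prmt5 flox/Δ background in the conditional knockouts (cKO). Osteoclast cKO cells came from Prmt5 flox/Δ Ctsk-Cre mice, and the sources used here do not give the genotype of the osteoclast control libraries. Ctsk-Cre is active in osteoclasts as well as in PSCs. Each group holds 3 libraries. The PSC groups are described as 3 mice each, while nothing in the sources ties the osteoclast libraries to separate mice or cultures, so p-values for osteoclasts reflect library-to-library spread, which may be technical.

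PSC libraries held 6958265 to 13928745 mapped reads and osteoclast libraries 984885 to 3608940 counts. Control 3 of the PSCs has a table of its own, and its log2 levels correlated with the other 5 libraries at 0.842 to 0.860, against 0.948 to 0.982 among those 5, so the main PSC comparison set controls 1 and 2 against cKO 1 to 3 and values of control 3 are given beside it. Prmt5 itself was measured at 6.29 and 8.31 RPKM (reads scaled to exon length and to the library's mapped reads) in PSC controls 1 and 2 and 4.32 in control 3, against 8.40, 6.31 and 8.08 in the 3 cKO libraries. The gene-level value was thus not lower in the PSC libraries labelled cKO, and since it does not resolve single exons it cannot check the deletion. Every PSC direction below rests on the labels. In osteoclasts Prmt5 was 58.5, 71.7 and 67.6 CPM (counts scaled to the library size after TMM normalisation) in controls and 28.8, 37.8 and 35.3 in cKO, which passed edgeR's test (log2 fold change -1.01, SE 0.16, Benjamini-Hochberg adjusted p = 0.0145).

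All 8 PSC markers were detected in each PSC library, and all 10 osteoclast markers in each osteoclast library. The osteoclast list, which shares Ctsk with the PSC list, summed to 199 to 254 RPKM over the 6 PSC libraries. Of its 10 genes 1 to 4 were at 0 in a PSC library, and only Calcr, an osteoclast receptor, was at 0 in all. The PSC markers summed to 19634 and 15796 RPKM in controls 1 and 2 and 6529 in control 3, against 10157, 10923 and 10286 in cKO. In osteoclasts all 8 were detected in 5 of 6 libraries, with sums of 5809 to 10763 CPM over the 6. Markers of other cells were present in the sort. The summed level of 6 erythroid genes was 47.3 and 33.1 RPKM in controls 1 and 2 and 1257 in control 3, against 513, 862 and 183 in the cKO libraries. The 6 surface markers against which the cells were sorted summed to 8.46 and 8.92 RPKM in controls 1 and 2 and 13.7 in control 3, against 22.8, 16.4 and 17.8 in cKO. Neutrophil genes (6) summed to 1935 and 1136 RPKM in controls 1 and 2 and 393 in control 3. In cKO they summed to 2039, 1885 and 1198. For 6 macrophage genes the sums were 294 and 192 RPKM in controls 1 and 2 and 32.8 in control 3. Their cKO sums were 341, 251 and 251, and for both lists the groups overlap. The erythroid and sort-marker sums were higher in the labelled cKO libraries than in controls 1 and 2. The PSC-marker sum was lower, while the PSC-marker medians overlapped between the groups. The part of these differences in the results below was not tested. In bulk samples fewer cells of a type and less RNA per cell cannot be told apart.

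In PSCs labelled cKO 13 spliceosome transcripts were more abundant, all of them SF3b, U1-associated, U2AF or tri-snRNP members. Summed over the 49 rows, their level reached 424 and 429 RPKM in controls 1 and 2 and 561 in control 3, against 670, 687 and 683 in the cKO libraries. Of 47 members with a mean of at least 1 RPKM, 13 rose and 0 fell (limma on log2(RPKM + 1), adjusted p under 0.05), which is 27.7% of the members against a background of 8.46% of all 11045 genes tested that were called higher and 1.67% called lower. At an unadjusted p under 0.05, 21 members were higher and 1 was lower. The median log2 fold change of the members was 0.29, against 0.14 over all genes, and 33 of 47 lay above the all-gene median. For the 34 members that did not pass it was 0.21. The shift of all genes depends on scaling: with median-of-ratios scaling it was -0.01, 415 genes (3.76%) were called higher and 297 (2.69%) lower in place of 934 and 184, and 8 members rose in place of 13 (Sf3b2, U2af1l4_2, Luc7l, Prpf39, Snrnp200, Prpf3, Sf3b1 and Prpf8). Without control 1, 7 rose, against 2.33% of all genes, and 8 without control 2 (3.28%) or without cKO 2 (4.62%). With no filter on low values 7 rose (0.762% of genes), with the replicate number as a block 5 (0.534%), and with that block over all 6 libraries 0 (0.00914%, 1 gene of 10943). Over all 6 libraries 5 members rose (Sf3b2, U2af1l4_2, Luc7l, Snrnp200 and Prpf3) and 0 fell, against 1.54% and 0.347% of all genes, and by edgeR on recovered reads 10 rose and 0 fell, against 4.79% and 3.5%.

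Groups did not overlap for many members. In 26 of 47 every cKO library lay above controls 1 and 2, as it did for 35.6% of all genes, and in 2 every cKO library lay below them, as for 10.2%. Set against all 3 controls, 20 members lay above, with a background of 20.7%, and 1 below, with 6.55%. In 12 of the 13 called members control 3 also lay below every cKO library, and the exception was Prpf8. Control 3 had the highest erythroid sum and the lowest neutrophil and macrophage sums of the 6 libraries, and the part of these differences in its levels was not tested.

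**Figure D1:**
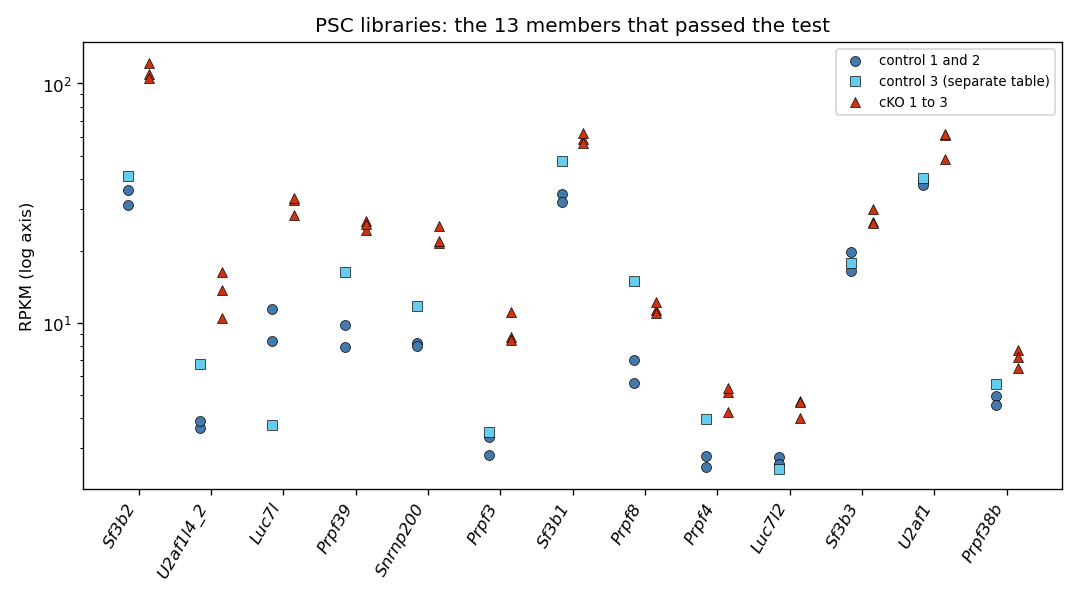
RPKM (log axis) in each PSC library for the 13 members that passed, ordered by log2 fold change; circles, controls 1 and 2; squares, control 3; triangles, cKO 1 to 3. In all 13 the 3 cKO libraries lie above controls 1 and 2, and control 3 lies above cKO for Prpf8 only.

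The widest change belonged to Sf3b2, a subunit of SF3b that contacts the pre-mRNA beside the branch point and is a known substrate of another arginine methyltransferase, PRMT9. The gene lies on the minus strand of chromosome 19, 5273923 to 5295455 (GRCm38). Its level was 31.0 and 35.7 RPKM in controls 1 and 2 and 40.9 in control 3, against 109.9, 122 and 105.0 in cKO. No cKO library came near a control (log2 fold change 1.72, SE 0.12, adjusted p = 0.000836). In controls 1 and 2 it stood next to U2af1 and Sf3b1 among the most abundant members per length, with means of 33.4, 38.3 and 33.2 RPKM. In those 2 libraries the values of Sf3b2 and Sf3b1 overlap and those of U2af1 lie above both, while in control 3 U2af1 was the lowest of the 3 at 40.4 RPKM. In cKO its mean was 112 ± 8.83 RPKM (SD, n = 3), against 58.8 ± 2.92 for Sf3b1 and 57.0 ± 7.45 for U2af1.

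Promoter stretches are printed for 4 of the members with the widest changes, and shared control of these members was not tested. They are the 150 bases that end just before the start site in RefSeq (GRCm38.p6), written 5′ to 3′ on the gene's strand, with CCGGAAG, the core read by ETS-family factors, in capitals.
Sf3b2, chr19:5295458-5295607, minus strand: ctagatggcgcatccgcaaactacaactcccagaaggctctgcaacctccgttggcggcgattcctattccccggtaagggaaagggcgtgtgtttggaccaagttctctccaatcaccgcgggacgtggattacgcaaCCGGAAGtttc
Snrnp200, chr2:127208236-127208385, plus strand: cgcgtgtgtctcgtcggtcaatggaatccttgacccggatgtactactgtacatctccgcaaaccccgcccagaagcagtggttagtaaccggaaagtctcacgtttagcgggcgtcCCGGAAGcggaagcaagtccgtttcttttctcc
Prpf3, chr3:95855754-95855903, minus strand: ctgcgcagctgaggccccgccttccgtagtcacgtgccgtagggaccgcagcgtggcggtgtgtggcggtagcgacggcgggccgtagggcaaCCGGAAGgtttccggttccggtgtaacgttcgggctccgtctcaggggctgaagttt
Prpf39, chr12:65036184-65036333, plus strand: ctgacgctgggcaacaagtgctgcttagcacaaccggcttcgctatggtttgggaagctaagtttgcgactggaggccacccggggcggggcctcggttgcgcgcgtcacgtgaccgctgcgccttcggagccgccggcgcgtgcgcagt
The motif begins 11 bases before the start in Sf3b2, 33 in Snrnp200 and 57 in Prpf3, whose other start site has no match in its own 150 bases. These letters are not in the Prpf39 stretch, nor in those of the called members Sf3b1 and Prpf8, which are not printed. RefSeq windows running from 250 bases before to 50 after the start were at hand for 38 of the 48 symbols, 45 windows in all. CCGGAAG was found on either strand in 14 of these 45 (31.1%), in 5 of the 15 windows of called members (33.3%), in 17.8% of the 10862 windows of genes tested in PSCs and in 8.86% of all 32851 windows. AAGATGGCG, the core of YY1 sites, was in 8.89% of member windows, 6.67% of those of called members, 3.15% of those of genes tested in PSCs and 1.40% of all windows. For the palindromic core of NRF1 sites the shares were 2.22%, 0%, 2.03% and 0.971%. A match is a string of letters and says nothing of binding, and the share in called members was close to that in the whole family.

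Among the other 8 SF3a and SF3b genes, 2 rose. Sf3b1, the large scaffold that clamps the branch-point helix, was at 34.5 and 31.9 RPKM in controls 1 and 2 and 47.5 in control 3, against 58.4, 61.9 and 56.1 in cKO (log2 fold change 0.81, SE 0.11, adjusted p = 0.0066). Sf3b3, the propeller-shaped partner of Sf3b1, was at 19.8 and 16.5 RPKM, 17.8 in control 3, and 26.3, 26.1 and 29.8 in cKO (0.57, SE 0.13, adjusted p = 0.0322). Both passed with no overlap between groups, though Sf3b3 passed in 0 of 5 fits that each left out 1 library, with a log2 fold change of 0.41 under median-of-ratios scaling (adjusted p = 0.103). Sf3a1, Sf3a2, Sf3a3, Sf3b4, Sf3b5 and Sf3b6 did not pass. Sf3b6, the small subunit next to the branch-point adenosine, had a log2 fold change of 0.03 with a 95% interval from -0.23 to 0.29, and Sf3b5 of -0.15 (-0.55 to 0.25). Both intervals lie below that of Sf3b2, which starts at 1.44.

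In the U1-associated group all 7 members had every cKO library above controls 1 and 2, and 3 rose. Luc7l, a relative of yeast Luc7, which helps U1 choose 5′ splice sites, was at 8.39 and 11.4 RPKM in controls 1 and 2 and 3.75 in control 3, against 32.6, 33.3 and 28.3 in cKO (log2 fold change 1.58, SE 0.15, adjusted p = 0.00207). Prpf39, the counterpart of a yeast U1 protein, was at 7.92 and 9.81 RPKM, 16.2 in control 3, and 26.8, 24.4 and 26.0 in cKO (1.44, SE 0.12, adjusted p = 0.00142). Luc7l2 was at 2.74 and 2.56 RPKM, 2.45 in control 3, and 4.72, 4.68 and 4.0 in cKO (0.58, SE 0.14, adjusted p = 0.0387). The groups do not overlap for any of the 3, but Luc7l2 passed in 0 of 5 fits without 1 library and had an adjusted p of 0.103 under median-of-ratios scaling. Snrnp70, the U1 70K protein that grips the U1 RNA, had a log2 fold change of 0.17 with an interval from -0.09 to 0.43 and did not pass. Prpf39 overlaps Fkbp3 on the other strand, and the sources used here do not say whether the counting used strand. Fkbp3 was at 3.07 and 2.56 RPKM in controls 1 and 2, 22.5 in control 3 and 2.35 to 3.18 in cKO.

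U2AF members were split. U2af1, the small subunit that reads the AG at the intron's end, was at 39.1 and 37.5 RPKM in controls 1 and 2 and 40.4 in control 3, against 48.4, 61.1 and 61.6 in cKO (log2 fold change 0.55, SE 0.13, adjusted p = 0.0423). It passed in 1 of 5 fits that left out a library. U2af2, the large subunit that binds the polypyrimidine tract, had a log2 fold change of 0.31 (95% interval -0.02 to 0.65) and did not pass. The row U2af1l4_2 was at 3.62 and 3.90 RPKM, 6.71 in control 3, and 16.3, 10.5 and 13.7 in cKO (1.59, SE 0.18, adjusted p = 0.00346). U2af1l4 is a paralogue of U2af1. This row is uncertain, because the model spans U2af1l4_1 and Igflr1 and crosses Psenen on the other strand, and U2af1l4_1 had a log2 fold change of 0.06 (-0.32 to 0.44). Igflr1 was at 1.18 and 3.43 RPKM in controls 1 and 2, 2.83 in control 3 and 0.34 to 0.63 in cKO.

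Of 12 tri-snRNP members, 5 rose. Snrnp200, the helicase that unwinds U4 from U6, was at 8.26 and 8.01 RPKM in controls 1 and 2 and 11.7 in control 3, against 21.6, 21.9 and 25.3 in cKO (log2 fold change 1.38, SE 0.12, adjusted p = 0.00136). Prpf8, the U5 scaffold that cradles the catalytic RNA, was at 5.58 and 6.96 RPKM, 15.0 in control 3, and 11.3, 11.0 and 12.2 in cKO (0.79, SE 0.13, adjusted p = 0.0121). For Prpf8 the third control stood above every cKO library, and over all 6 libraries its log2 fold change was 0.41 (adjusted p = 0.528). Without control 1 it did not pass either (adjusted p = 0.072).

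Prpf3 and Prpf4 bind each other on the U4/U6 particle. Prpf3 was at 2.81 and 3.34 RPKM, 3.50 in control 3, and 8.70, 11.1 and 8.51 in cKO (log2 fold change 1.35, SE 0.15, adjusted p = 0.00353). Prpf4 was at 2.77 and 2.50 RPKM, 3.98 in control 3, and 5.11, 5.36 and 4.23 in cKO (0.69, SE 0.14, adjusted p = 0.0275). Prpf38b, a relative of the activation factor Prpf38a, was at 4.93 and 4.55 RPKM, 5.54 in control 3, and 7.67, 7.17 and 6.5 in cKO (0.50, SE 0.13, adjusted p = 0.0487). No group overlaps with another for these 3, but of the 5 fits that left out a library Prpf4 passed in 1 and Prpf38b in 0. The other 7 did not pass and ran from Prpf18, a factor of the later catalytic step, at -0.07 to Prpf4b, a kinase of the tri-snRNP, at 0.33. Prpf31 and Prpf6, which bridge the U4/U6 and U5 parts, had log2 fold changes of 0.26 and 0.22.

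The ring of LSm proteins that holds the 3′ end of U6, Lsm2 to Lsm8, showed no called change, and neither did Lsm1 of the cytoplasmic ring. Across Lsm1 to Lsm8, 0 of 8 passed by limma or by edgeR on recovered reads, 1 had an unadjusted p under 0.05 in the limma fit, and the median log2 fold change was 0.14, 0.01 above that of all genes. The smallest p belonged to Lsm4, at 15.9 and 20.002 RPKM in controls 1 and 2 and 24.0 in control 3, against 24.3, 22.6 and 23.9 in cKO (0.38, SE 0.13, adjusted p = 0.1). Control 3 lay among the cKO libraries for Lsm4. Lsm3 was next, at 11.5 and 9.59 RPKM in controls 1 and 2 and 9.43 in control 3, against 10.1, 14.5 and 13.4 in cKO, where the groups overlap. The upper ends of the 95% intervals of the 8 genes ran from 0.42 for Lsm2 to 0.68 for Lsm4, which leaves out the fold change of Sf3b2 but not a smaller rise.

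Of the 5 other LSm genes, Lsm11 and Lsm14b averaged under 1 RPKM and were not tested, and 0 of the other 3 passed. Lsm14a, a P-body protein, was at 16.3 and 14.5 RPKM in controls 1 and 2 and 17.04 in control 3, against 19.3, 18.8 and 18.7 in cKO (0.28, SE 0.11, adjusted p = 0.143). Lsm10 was at 9.14 and 11.0 RPKM, 20.3 in control 3, and 11.9, 8.54 and 7.30 in cKO (-0.13, SE 0.19). Prpf19, the ubiquitin ligase of the Prp19 complex, was scarce and scattered, at 0.749 and 1.81 RPKM in controls 1 and 2 and 0.553 in control 3, against 0.681, 0.622 and 1.97 in cKO (-0.14, 95% interval -0.89 to 0.61).

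The minor spliceosome, which removes the rare U12-type introns, gave the lowest value of the family. Snrnp35, its counterpart of the U1 70K protein, was at 3.52 and 3.10 RPKM in controls 1 and 2 and 4.80 in control 3, against 2.03, 2.47 and 1.79 in cKO. All 3 cKO libraries lay below all 3 controls, the only member for which they did, against 6.55% of all genes. The log2 fold change of -0.48 did not pass (SE 0.16, unadjusted p = 0.0169, adjusted p = 0.0986). The Snrnp35 values rest on few exon reads, 54, 45 and 45 in controls 1 to 3 and 38, 33 and 28 in cKO. Snrnp25, a U11 protein, was at 3.55 and 4.72 RPKM, 8.56 in control 3, and 3.59, 8.03 and 4.96 in cKO, with overlapping groups, and Snrnp48 had a log2 fold change of 0.10 (95% interval -0.32 to 0.52).

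**Figure D2:**
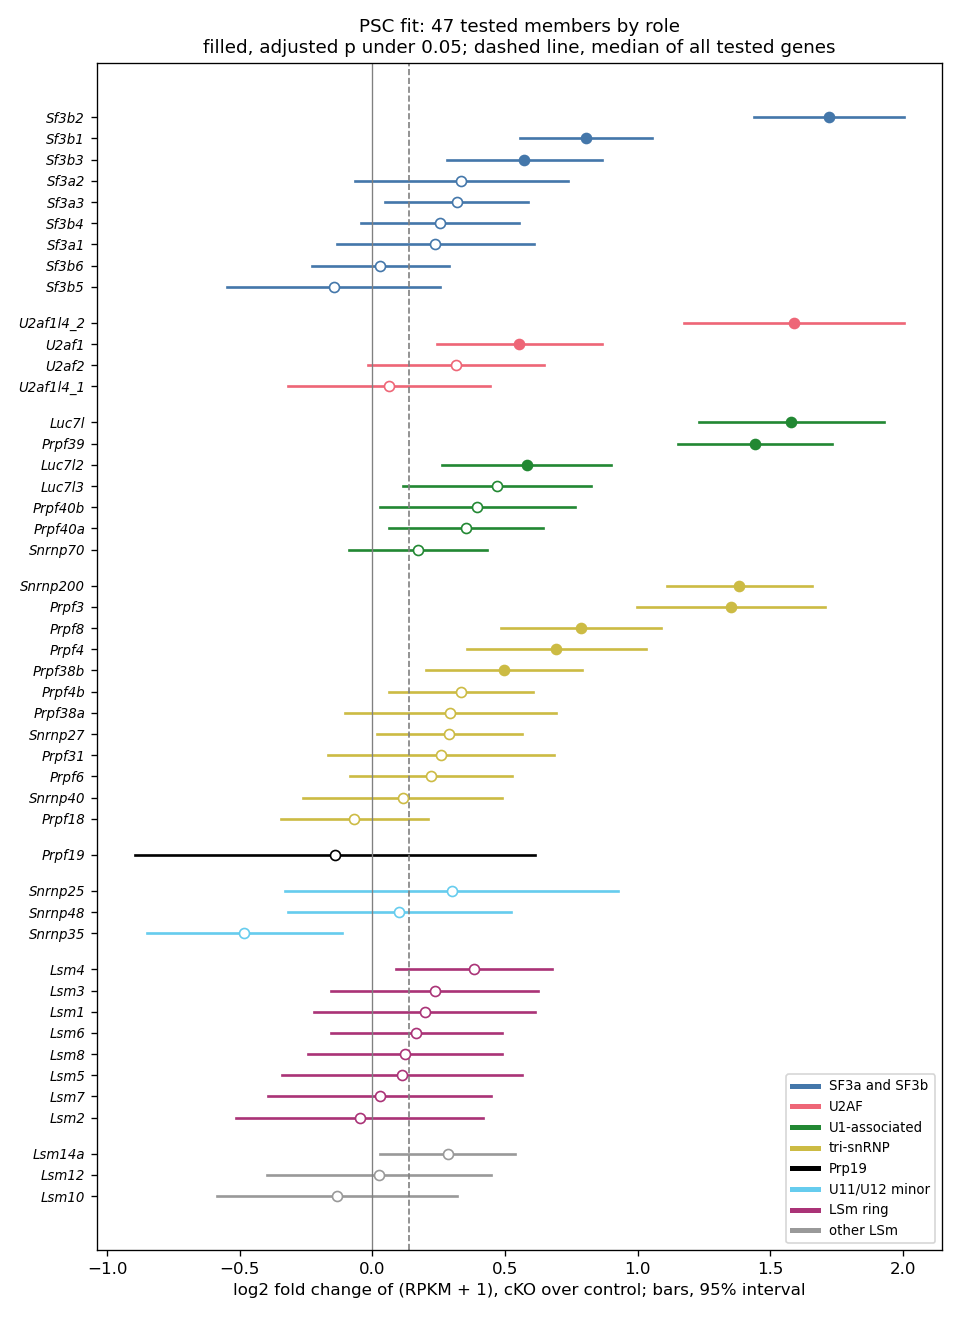
Log2 fold change of (RPKM + 1), cKO over controls 1 and 2, for the 47 tested members by role; bars are 95% intervals, filled points passed, and the dashed line is the median of all tested genes at 0.14. SF3b, U1-associated, U2AF and tri-snRNP members hold all 13 filled points, from Prpf38b at 0.50 to Sf3b2 at 1.72, and the LSm, minor-spliceosome and Prp19 rows hold none.

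Members with a longer coding sequence tended to have a higher log2 fold change. Over 47 members the log2 coding length (longest in GENCODE M21) and the log2 fold change correlated with Pearson r = 0.48 and Spearman rho = 0.60, across genes that share the same 5 libraries and are not independent replicates. Over the 10535 tested genes with a coding length the same values were 0.01 and 0.03. The median coding length was 1995 bases in the 13 called members and 974 in the other 34, and the LSm ring had a median of 308. Depth differed as well: over the 6 libraries the fewest exon reads of a called member were 133, and those of any tested member 28. Median control levels were 8.14 RPKM in called members and 5.32 in the others. The 13 called rows lie on 11 chromosomes. A transcript annotated as retained intron in GENCODE M21 was present for 12 of the 13 called members and 24 of the 34 others.

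**Figure D3:**
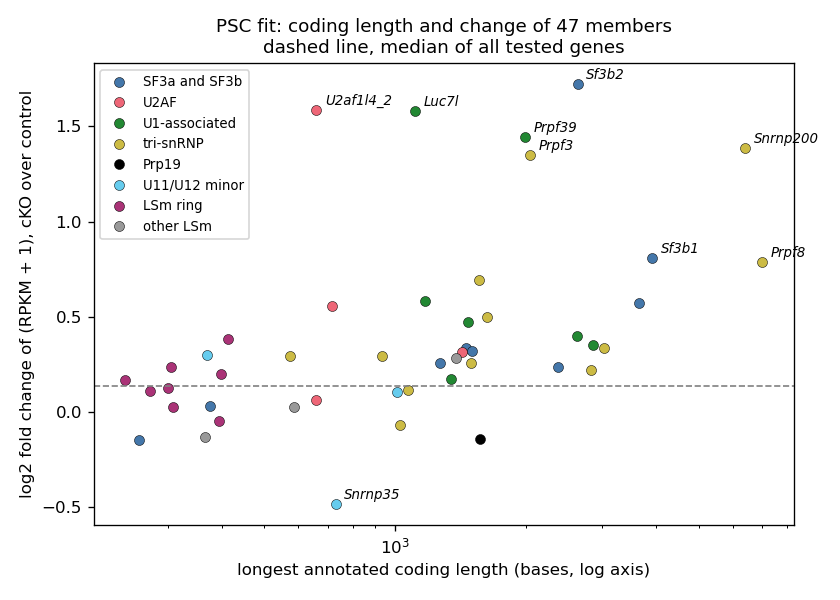
Longest annotated coding length (bases, log axis) against the PSC log2 fold change of (RPKM + 1) for 47 members, coloured by role; the dashed line is the median of all tested genes at 0.14. LSm genes lie within 0.38 of 0, most of them at the short end, with Lsm14a at 1386 bases, and Prpf8 and Snrnp200, at 7005 and 6408 bases, lie at 0.79 and 1.38, while Luc7l and U2af1l4_2 are high at shorter lengths.

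Since these proteins remove introns, the share of each gene's own reads that fell in its introns was compared next. The tables give this ratio per gene, and whole exon and intron reads could be recovered for all 49 rows. Pooled over the members, introns took 8.34% and 8.96% of reads in controls 1 and 2 and 10.9% in control 3, against 10.8%, 10.8% and 10.02% in cKO. Over all genes whose reads were recovered the shares were 8.04% and 8.70% in controls 1 and 2, against 10.2%, 9.62% and 9.37% in cKO. Both sets were thus higher in cKO than in controls 1 and 2. The member share was highest in control 3. Its share over all genes, 11.8%, was not limited to recovered genes and rests on another set of genes. By limma on log2 odds, whose standard errors ran from 0.17 for U2af1 to 1.70 for Snrnp25, 0 of 46 members passed in either direction, with a background of 0.0654% of 10697 genes called higher and 0.0187% lower. At an unadjusted p under 0.05, 6 members were higher and 2 lower. On recovered reads, edgeR's interaction between group and read class (exon or intron) called 3 members higher and 1 lower, against a background of 3.23% of 12567 genes higher and 0.263% lower.

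Sf3b2, among the most abundant members, passed the interaction for intron share but not limma. Introns took 6.48% and 5.68% of its reads in controls 1 and 2 and 7.82% in control 3, against 15.8%, 15.8% and 15.1% in cKO. These shares rest on 79 and 75 intron reads in controls 1 and 2 and 78 in control 3, against 928, 735 and 699 in cKO, beside 1140, 1246 and 920 exon reads in the controls and 4946, 3920 and 3944 in cKO. Scaled to mapped reads, its intron reads were 9.63 times as many in cKO as in controls 1 and 2, and its exon reads 3.37 times. The log2 odds were 1.44 higher in cKO (SE 0.25), with an adjusted p of 0.105 by limma and 0.0017 by the edgeR interaction, and from 0.0017 to 0.416 over its alternatives. The tables do not say which intron the reads came from. An antisense gene, AC125059.3, overlaps Sf3b2 in GENCODE M21.

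Lsm10 and Prpf4 were the other members called higher by the interaction. Lsm10, a U7 protein, had 1.01% and 0% of reads in introns in controls 1 and 2 and 0.746% in control 3, against 11.4%, 14.9% and 25.2% in cKO. These are 1, 0 and 1 intron reads in the controls against 20, 14 and 27 in cKO, few reads but with no overlap, while its exon level did not pass. The interaction gave an adjusted p of 0.011 and limma 0.0813, with a range of 0.011 to 0.413. Prpf4 had 4.28% and 7.83% in controls 1 and 2 and 13.3% in control 3, against 18.1%, 14.7% and 21.4% in cKO, with an adjusted p of 0.0484 by the interaction, 0.143 by limma and up to 0.426 over its alternatives.

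Luc7l was the member called lower by the interaction. Its intron share was 4.40% and 3.74% in controls 1 and 2 and 1.51% in control 3, against 1.67%, 2.09% and 2.14% in cKO. The third control lay below all cKO libraries, and the interaction (adjusted p = 0.0496) was the only fit in which it passed, with values up to 0.699 elsewhere. Its exon reads, scaled to mapped reads, were 3.17 times as many in cKO and its intron reads 1.51 times. U2af1 had the highest share of the called members, at 44.7% and 45.9% in controls 1 and 2 and 46.9% in control 3, against 56.7%, 59.4% and 53.2% in cKO. All cKO libraries lay above all controls, the log2 odds were 0.64 higher (SE 0.17), and the adjusted p was 0.175 by limma, 0.173 by the interaction and 0.0491 where only genes of at least 5 RPKM were tested, with values up to 0.435 over its alternatives. That filter called 3 members higher and 0 lower, against 4.3% and 0.292% of genes.

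Over 46 members the log2 fold change in level and the difference in log2 odds correlated with Pearson r = -0.16 and Spearman rho = -0.14, as a description across genes of the same libraries. Snrnp200 had 3.42% and 3.57% of reads in introns in controls 1 and 2 and 3.04% in control 3, against 4.50%, 3.63% and 2.88% in cKO, where groups overlap. Prpf39 had 12.2% and 11.5%, 13.3% in control 3, and 11.0%, 10.5% and 8.92% in cKO. Both rose in level by more than 1 on the log2 scale. Their differences in share did not pass, with 95% intervals on log2 odds from -0.75 to 0.85 for Snrnp200 and from -0.91 to 0.41 for Prpf39.

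**Figure D4:**
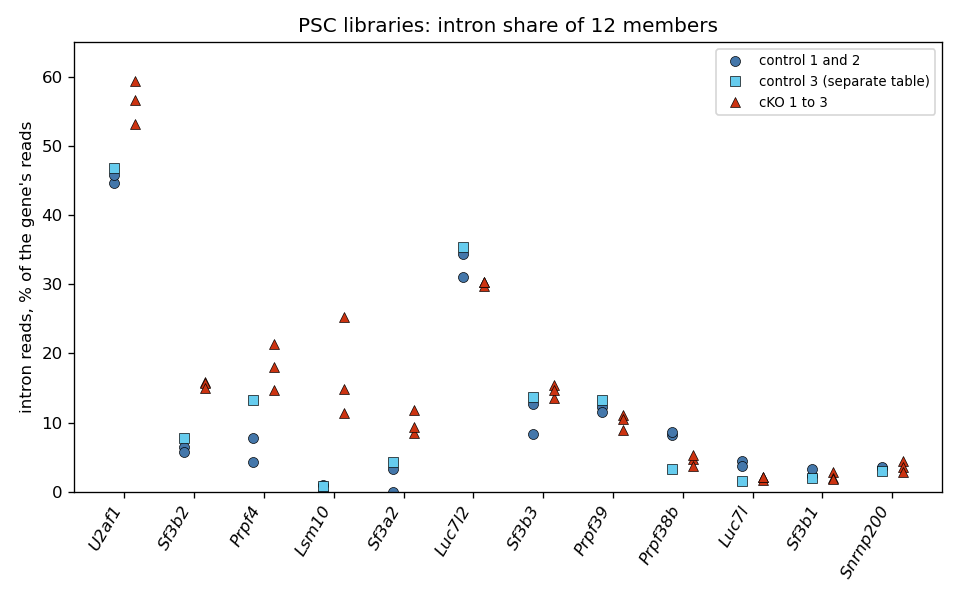
Percent of a gene's reads that fell in introns, in each PSC library, for 12 members; circles, controls 1 and 2; squares, control 3; triangles, cKO 1 to 3. Sf3b2, U2af1, Prpf4, Lsm10 and Sf3a2 have all cKO libraries above all 3 controls, up to 59.4% for U2af1. The share of all genes with this pattern was not counted. Sf3a2 rests on 4, 0 and 4 intron reads in the controls and did not pass by limma (adjusted p = 0.199). Snrnp200 and Sf3b1 overlap, and Luc7l is at 2.14% or less in cKO.

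Other genes of the pathway were taken from a list of 78 further spliceosome components. Of 75 tested, 14 rose and 0 fell (18.7%, against the background of 8.46% and 1.67%), with a median log2 fold change of 0.29, in libraries that differ in the erythroid and sort-marker sums given above. Control 3 lay below every cKO library for 9 of the 14, among them for 2 and above them for 3. The 14 include Sart3, which recycles U4 and U6, at 1.07 (SE 0.16), Smndc1 at 1.01 (SE 0.14), Htatsf1 at 0.80 (SE 0.12) and Cdc5l, of the Prp19 complex, at 0.73 (SE 0.12), for which control 3 (18.8 RPKM) lay among the cKO libraries (17.8 to 21.4). For the 8 Sm core proteins, among which are PRMT5 substrates, 0 of 8 passed by limma in either direction, 2 had an unadjusted p under 0.05, and the median was 0.23. The intron share of 0 of 75 and 0 of 8 genes passed by limma, with 11 and 1 at an unadjusted p under 0.05.

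In osteoclasts no spliceosome transcript passed the test. Of 48 members 0 passed in either direction by edgeR, 0 were higher and 2 lower at an unadjusted p under 0.05, and DESeq2 also called 0, with a background of 0.0186% of 10724 genes called in each direction. The median log2 fold change was -0.03, against 0.00 for all genes, and values ran from -0.49 for Snrnp48 to 0.27 for Sf3b5. Summed levels were 4427, 4424 and 4638 CPM in controls and 4395, 4457 and 4265 CPM in cKO.

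The members that led in PSCs had overlapping groups in osteoclasts. Sf3b2 was at 183, 171 and 199 CPM in controls and 192, 183 and 168 in cKO, a log2 fold change of -0.02 (SE 0.11). Snrnp200 was at 300.4, 269 and 294 CPM in controls and 275, 317 and 254 in cKO (-0.03, SE 0.11), and Prpf3 at 37.3, 41.9 and 47.01 against 39.2, 40.3 and 51.9 (0.02, SE 0.17). Luc7l was at 92.9, 78.7 and 102 CPM against 76.8, 80.6 and 84.1 (-0.19, SE 0.13), and Prpf39 at 53.3, 49.2 and 58.5 against 57.8, 37.8 and 46.7 (-0.12, SE 0.16). Their fold changes lay within 2 standard errors of 0. Prpf8, the most abundant member by CPM, was at 624, 610.4 and 614 in controls and 622, 674 and 601 in cKO. In 1 member, Lsm14b, every cKO library lay above every control, and in 5 below, against a background of 5.03% and 5.53%. The difference between the cell types was not tested, because the tables hold different units, and age, culture and depth differ with cell type.

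**Figure D5:**
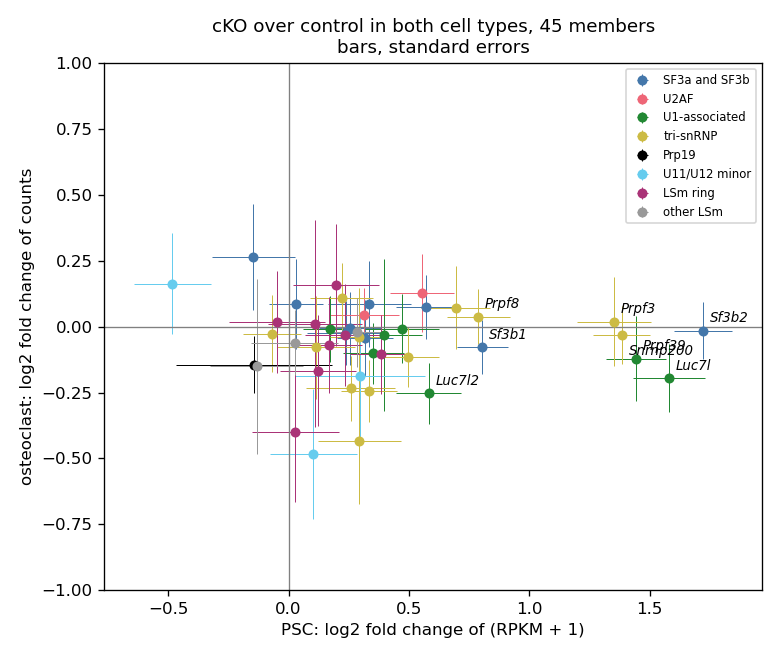
Log2 fold changes, cKO over control, in PSCs (x axis, RPKM + 1) and in osteoclasts (y axis, counts) for 45 members tested in both. Colours give the role and bars the standard errors. U2af1l4 is left out, since its rows differ between the cell types, and its osteoclast log2 fold change was -0.05 (SE 0.17). Sf3b2, Luc7l, Prpf39, Snrnp200 and Prpf3 lie between 1.35 and 1.72 on the x axis and between -0.19 and 0.02 on the y axis.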

How the data were processed

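For osteoclasts the deposited values are raw counts. For PSCs the authors deposited RPKM and an intron ratio, the fraction of a gene's reads that lie in introns, and for control 3, in a separate table, exon, intron and gene read counts and exon lengths. The osteoclast table also holds the authors' p-values, FDR and signed fold changes per gene, which were not used. The submitters' notes name Trim Galore 0.6.4, kallisto 0.46.0 and GRCm38. The sources used here do not name the aligner or counter behind RPKM and intron ratios, nor whether strand was used.

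Osteoclast counts were tested with edgeR 4.0.16 (quasi-likelihood, TMM, filterByExpr), and PSC values with limma 3.58.1 in R 4.3.3 on log2(RPKM + 1) where the mean reached 1 RPKM. These fold changes understate the change of low genes. Intron shares were tested by limma for the same genes as log2 odds (offset 0.005), given a ratio in every library and 1 above 0. P-values are two-sided, Benjamini-Hochberg adjusted over all genes tested, with a threshold of 0.05. Intervals are 95% intervals of the fit. Whole reads were recovered from RPKM steps, within 0.02 reads, for 10923 of 10925 tested genes detected in all 5 libraries, with the exon length found by search for 5 members. The edgeR interaction needed 10 exon reads and 10 intron reads per gene. Tests were checked on simulated data, in which the limma test of intron shares missed most of the changed genes.

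Values in each library are given for members that passed and for the 2 members of each role group with the smallest unadjusted p, and further members were picked for naming from their values. The members, role groups and lists were chosen with earlier results of these data known.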

Additional observations from a re-analysis of the deposited data

Results flagged for a closer look

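In 3 members every PSC library labelled cKO lay above controls 1 and 2 while every osteoclast cKO library lay below every control. Taken singly, the first held for 35.6% of all genes tested in PSCs and the second for 5.53% of those tested in osteoclasts. The share of all genes that met both was not counted, so no result about these members is drawn. Luc7l2 had a log2 fold change of 0.58 in PSCs and -0.25 in osteoclasts, where it was at 264, 234 and 253 CPM in controls and 227, 172 and 227 in cKO. Prpf4b, a kinase, had 0.33 and -0.24, and Prpf31, a U4/U6 protein, 0.26 and -0.23. Of these 6 values only that of Luc7l2 in PSCs passed its test, and the difference between the cell types was not tested.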

How the results depend on the processing

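The 13 members higher in PSCs became 5 over all 6 libraries, 0 over all 6 libraries with replicate block (where 1 of 10943 genes passed higher), 7 with no filter on low values, 8 with median-of-ratios scaling, and 7 to 9 without 1 library (7 without control 1, 8 without control 2 or cKO 2). Sf3b2, Luc7l, Prpf39, Snrnp200, Prpf3, Sf3b1 and U2af1l4_2 passed in all 5 of the latter. The replicate numbers did not pair the libraries, with correlations of deviations from -0.08 to 0.07, and with the replicate block 5 members passed in PSCs (of 59 genes higher, in place of 934) and 0 in osteoclasts. No alternative called a member lower in level.

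The median log2 fold change of the PSC members, 0.29, was 0.24 over all 6 libraries with or without the block, 0.14 with median-of-ratios scaling, 0.17 by edgeR on recovered reads, 0.25 with the replicate block and 0.25 to 0.33 without 1 library. For the intron share, 3 members passed at a mean of at least 5 RPKM (Sf3b2, Lsm10 and U2af1), and the edgeR interaction called 3 higher and 1 lower. The median difference in intron share, 0.36, was 0.11 over all 6 libraries, 0.14 centred on the library median and 0.092 to 0.43 without 1 library. No fold change of a named member changed sign with a call. Of 254 values for named members in PSC levels, 187 kept their side of the threshold and 67 no longer passed. All 67 came from the 13 called members. The 187 include every value of the named members that were not called, which had no call to lose. The shallowest osteoclast library (984885 counts) limits scarce members, with as few as 2 counts in a library.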
